A study of Mus musculus with 36 samples.

Results

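Intercalated cells are the acid-base cells of the renal collecting duct. Type A cells secrete protons into the urine through an apical proton pump, the V-ATPase, and return bicarbonate to the blood through the anion exchanger Slc4a1, while type B cells secrete bicarbonate through pendrin, Slc26a4. The forkhead factor Foxi1 is required for these cells to form, and they use kidney forms of V-ATPase subunits beside the subunits found in every cell. Transcripts of 9 genes of this system were followed in kidney RNA-seq, out of 20458 genes named in the count table. The genes were picked by symbol for their known roles, with earlier results of these data known: Foxi1, the V-ATPase subunits Atp6v1b1, Atp6v1g3 and Atp6v0d2, the anion exchangers Slc4a1, Slc26a4 and Slc4a9, the cytosolic carbonic anhydrase Car2 and the ammonia channel Rhcg. Each gene was read from the RefSeq transcript row with the highest mean count, a choice that mattered only for Slc4a9.

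KO mice were homozygous for floxed Pkd1 or floxed Pkd2 and carried HoxB7-Cre (Pkd1f/f:HoxB7-Cre, Pkd2f/f:HoxB7-Cre), and WT mice had the same floxed alleles without Cre (Pkd1f/f, Pkd2f/f). All were on C57BL/6. Kidneys were taken on postnatal days 1, 3 and 7 (P1, P3, P7), with 3 KO and 3 WT libraries for each model and day, which gave 36 libraries in 12 groups. HoxB7-Cre acts in the collecting duct, but the RNA came from kidney tissue, so fewer intercalated cells and less RNA per cell cannot be told apart. The labels do not say whether replicates came from separate animals, and the p-values measure only the spread between these samples. Libraries held 7179152 to 15850818 reads counted on transcripts, with a median of 13143336. Levels are given as normalized CPM, counts per unit of library size after TMM scaling of the 18 libraries of each model. Groups were tested by the quasi-likelihood method of edgeR, and p-values were adjusted over all transcripts tested by the Benjamini-Hochberg method.

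Some features of the libraries touch the comparisons. The deleted gene had overlapping levels in KO and WT except in Pkd1 at P1 and Pkd2 at P7, and the Pkd2 transcript fell at P7 (log2 fold change -0.29, adjusted p = 0.0122). The labels give no sex, and Y-linked genes were counted in some libraries and not in others. In Pkd1 at P7 they were counted in 3 of 3 KO and 0 of 3 WT libraries, so that KO and the presence of Y-linked reads cannot be told apart within that day. In Pkd2 at P7 they were counted in 3 of 3 KO and 2 of 3 WT libraries. At P1, 0 of 3 KO libraries of either model had them, against 2 of 3 WT libraries in Pkd1 and 1 of 3 in Pkd2. At P3 all libraries of Pkd1 had them, and in Pkd2 0 of 3 KO and 1 of 3 WT libraries did. Genes spread over several RefSeq rows were counted poorly: of genes with 2 or more rows, 73.7% averaged under 10 reads, against 35.0% of genes with 1 row. Slc4a9, a basolateral exchanger of type B cells, was such a gene. Its 5 rows held 0 to 14 reads in a group of 3 libraries, and it was too low to be tested. The other 8 genes had 1 row each and had 10 counts or more in 3 or more libraries of both models and were tested.

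The forkhead factor and the pump subunits are shown with the bases before their transcription start, since Foxi1 is known to act through a forkhead motif in V-ATPase genes. The windows of 250 bases come from RefSeq on GRCm38.p6, the assembly of mm10, and are written 5′ to 3′ on the strand of the gene. Foxi1 lies on the minus strand (chr11:34208090-34208339), Atp6v1b1 on the plus strand (chr6:83742767-83743016) and Atp6v1g3 on the plus strand (chr1:138273488-138273737). Capitals mark the motif T, any base, TTTAC, which was searched on both strands.
Foxi1: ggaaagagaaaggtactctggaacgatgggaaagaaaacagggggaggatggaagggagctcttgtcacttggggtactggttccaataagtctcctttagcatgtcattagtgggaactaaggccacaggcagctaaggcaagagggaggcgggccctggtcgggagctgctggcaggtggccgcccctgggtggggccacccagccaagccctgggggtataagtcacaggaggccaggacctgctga
Atp6v1b1: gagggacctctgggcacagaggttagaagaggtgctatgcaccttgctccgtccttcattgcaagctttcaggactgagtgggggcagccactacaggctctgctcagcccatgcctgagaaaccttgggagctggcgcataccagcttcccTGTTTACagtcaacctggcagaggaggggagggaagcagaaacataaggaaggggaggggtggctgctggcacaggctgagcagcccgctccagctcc
Atp6v1g3: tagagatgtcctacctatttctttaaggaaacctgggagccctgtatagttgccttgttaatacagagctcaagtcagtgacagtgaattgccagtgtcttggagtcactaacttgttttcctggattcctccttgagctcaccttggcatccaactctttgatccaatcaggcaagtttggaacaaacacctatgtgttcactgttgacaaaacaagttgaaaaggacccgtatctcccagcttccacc
The motif was found in 1 of the 5 genes with a window, Atp6v1b1, Atp6v1g3, Foxi1, Rhcg and Slc26a4, when 50 bases after the start were included. It lay in Atp6v1b1 as TGTTTAC, 98 bases before the start (position -98). Of all 32851 windows of that length, 12.4% held it, and of all 27025 genes with a window 14% had it. The 250 bases taken for Slc26a4 (chr12:31559985-31560234, minus strand) overlap the end of the gene span given for it below.

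In WT kidneys at P7 the members differed widely in level per length of transcript. In Pkd1 WT, Rhcg had 188.6 ± 25.5 normalized CPM per kilobase (SD, n = 3), Car2 154.8 ± 7.98 and Atp6v1b1 140.8 ± 5.85. Far below these came Atp6v1g3 with 40.5 ± 8.72, Foxi1 with 38.3 ± 1.82 and Atp6v0d2 with 26.3 ± 4.99. Slc26a4 with 15.6 ± 1.15 and Slc4a1 with 14.9 ± 4.54 normalized CPM per kilobase were lowest. Neighbouring means lay within an SD of each other for Atp6v1g3 and Foxi1 and for Slc26a4 and Slc4a1. The order was the same in Pkd2 WT from Rhcg (196.7 ± 24.3 normalized CPM per kilobase) to Slc4a1 (13.6 ± 1.22), except that Atp6v1b1 (175.8 ± 20.8) and Car2 (175.5 ± 18.2) were level.

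**Figure D1:**
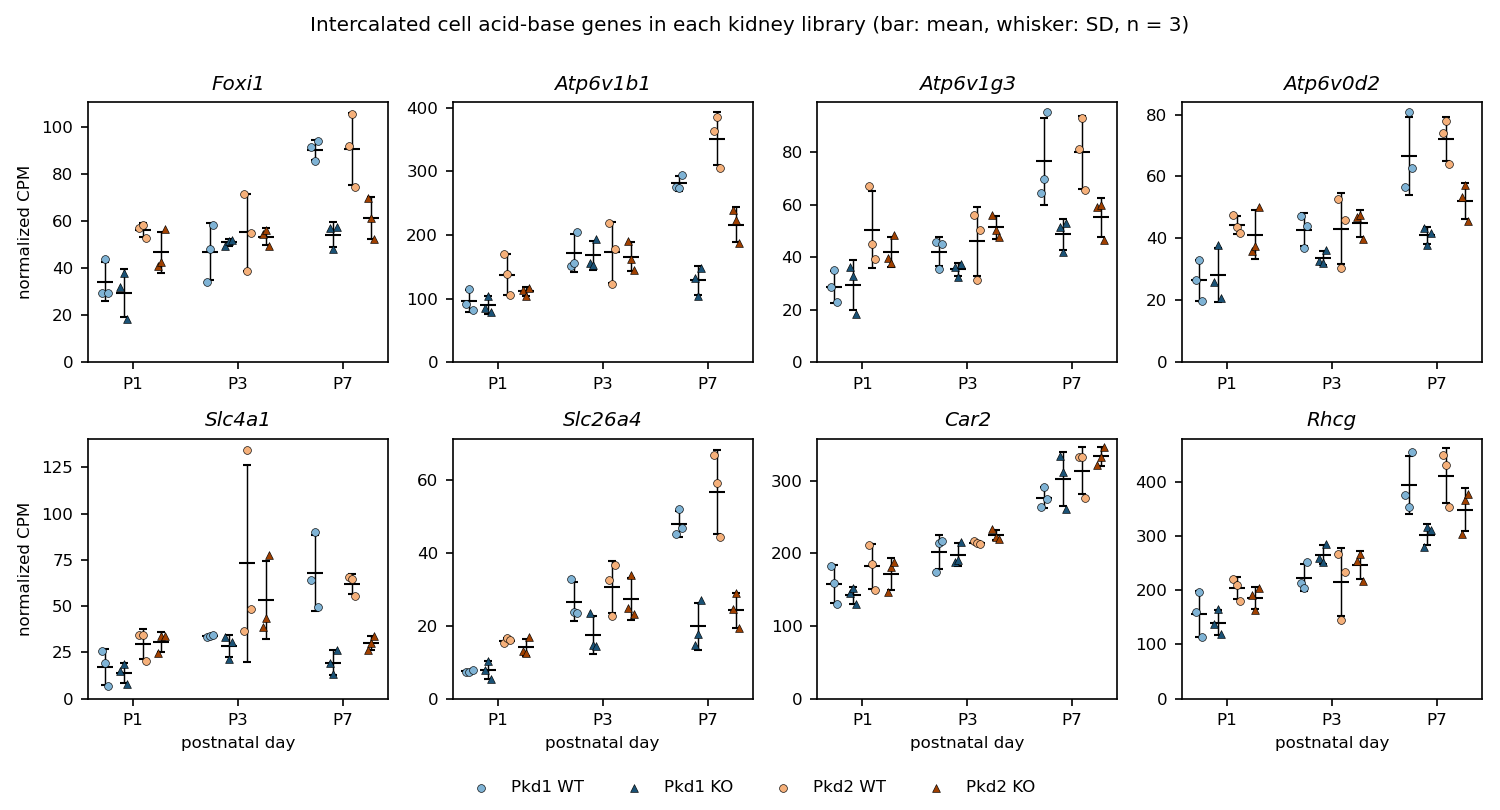
Normalized CPM (linear axis from 0) of the 8 tested genes against postnatal day in the 36 libraries, with circles for WT, triangles for KO, blue for the Pkd1 model and orange for the Pkd2 model. Horizontal bars are means and whiskers SD of 3 libraries. At P7 the KO triangles lie below the WT circles for Foxi1, the 3 pump subunits, Slc4a1 and Slc26a4, whereas those of Car2 do not.

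At P1 and P3 no member passed the test in KO against WT. In Pkd1 at P1, 0 of 8 members were called, where 0% of 12527 transcripts were, with log2 fold changes between -0.31 and 0.10 in the 8. In Pkd2 at P1, 0 of 8 were called, where 0% of 12633 transcripts were, and the log2 fold changes ran from -0.31 to 0.05. An unadjusted p under 0.05 in edgeR was reached by 0 of 8 members in either comparison, and by 161 transcripts in Pkd1 and 708 in Pkd2, and DESeq2 called 0 members in either. In Pkd1 at P3, 0 of 8 were called against 0.00798% of all transcripts, and in Pkd2 at P3 0 of 8 against 0%, with DESeq2 again calling 0 members in either. The unadjusted p in edgeR was under 0.05 for 3 of 8 members and 1767 transcripts in Pkd1, and for 0 of 8 members and 563 transcripts in Pkd2.

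Some members separated at P3 in Pkd1 without passing the adjusted test. Slc26a4 had 32.9, 23.7 and 23.5 normalized CPM in WT and 23.4, 14.7 and 14.4 in KO libraries, a log2 fold change of -0.60 (SE 0.22, adjusted p = 0.271). Atp6v0d2, the kidney d subunit of the membrane sector of the pump, had 47.4, 36.8 and 44.1 in WT and 32.8, 31.96 and 36.2 in KO (log2 fold change -0.35, SE 0.11, adjusted p = 0.234). For these 2 of 8 members every KO library was below every WT library, which held for 10.7% of all transcripts. Rhcg lay the other way, with 214.1, 204.3 and 251.6 normalized CPM in WT and 259.6, 252.2 and 285.1 in KO (log2 fold change 0.25, SE 0.09, adjusted p = 0.271).

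At P7, 6 of 8 members were lower in KO in both models: Foxi1, Atp6v1b1, Atp6v1g3, Atp6v0d2, Slc4a1 and Slc26a4. In Pkd1, 13.7% of all transcripts were called and 7.54% were called lower, and in Pkd2 these shares were 13.9% and 6.06%. The KO libraries lay below the WT libraries without overlap for 7 of 8 members in Pkd1, against 19.7% of all transcripts, and for 6 of 8 in Pkd2, against 15.9%. The median log2 fold change of the 8 members was -0.72 in Pkd1 and -0.55 in Pkd2, beside -0.0055 and 0.0015 over all transcripts tested. Car2 was not called in either model.
The presence of Y-linked reads stands beside these counts, and its part in them was not tested in Pkd1 at P7 alone. Within P7 of Pkd1 no comparison of KO and WT with the same Y-linked status exists. In a fit of all 18 Pkd1 libraries that had a term for libraries with Y-linked reads, the Y-linked covariate, which can be estimated only from the WT libraries at P1, 0 members and 6 transcripts in all were called, and the median of the members was -0.20, where the same 18 libraries without the covariate gave 6 of 8. In Pkd2, leaving out the WT library without Y-linked counts (WT replicate 3) gave 7 of 8 called, Rhcg being the addition. Fitting all 18 Pkd2 libraries gave 2 of 8, Atp6v1b1 and Slc26a4, with the calls of Foxi1, Atp6v1g3, Atp6v0d2 and Slc4a1 lost (adjusted p of 0.0534, 0.110, 0.0773 and 0.0859), and adding the Y-linked covariate gave 4 of 8. With 6 libraries in a fit the count also fell when 1 was left out, to 2 without Pkd1 WT replicate 1, 3 without Pkd1 KO replicate 2, and 3 without Pkd2 WT replicate 1, WT replicate 2 or KO replicate 3. Except for the Pkd1 fit with the covariate, the share of all transcripts called in these alternative fits is not given here.

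**Figure D2:**
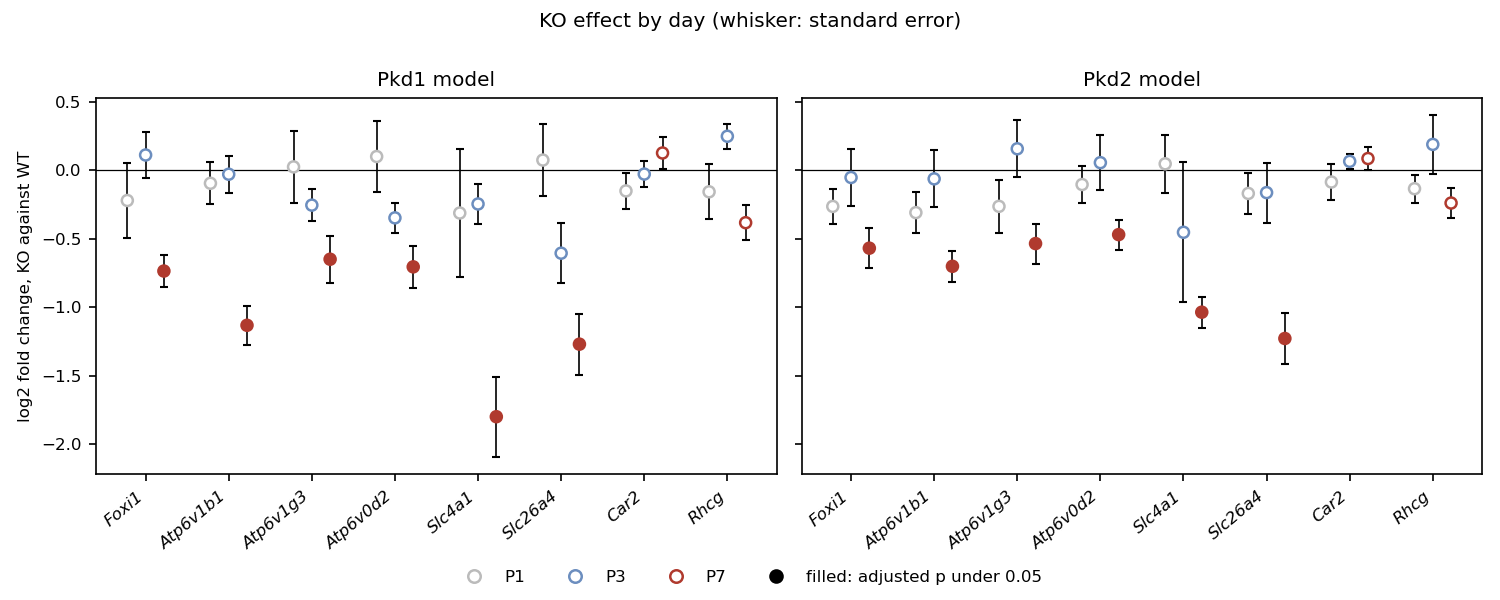
Log2 fold change of KO against WT (vertical axis) for the 8 tested genes at P1 (grey), P3 (blue) and P7 (red) in the Pkd1 model (left) and the Pkd2 model (right), with standard errors as whiskers and filled points where the adjusted p was under 0.05. Filled points occur only at P7, for 6 genes in each model, between -1.80 and -0.47.

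Foxi1, the factor that specifies intercalated cells (chr11:34204341-34208089), had 91.4, 85.6 and 94.0 normalized CPM in the Pkd1 WT libraries at P7 and 57.0, 48.1 and 57.6 in KO. In Pkd2 it had 92.0, 105.5 and 74.6 in WT and 70.0, 61.4 and 52.2 in KO. The groups did not overlap in either model, although the lowest Pkd2 WT and the highest KO library were close. Foxi1 fell by 0.74 on the log2 scale in Pkd1 (SE 0.12, adjusted p = 0.0111) and by 0.57 in Pkd2 (SE 0.15, adjusted p = 0.0389). It was called in 5 of 6 fits without a library in Pkd1 and in 2 of 6 in Pkd2.

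Among the pump subunits that are members, Atp6v1b1, the kidney B subunit of the cytosolic sector (chr6:83743017-83758855), moved most. Its normalized CPM were 274.8, 274.4 and 294.9 in Pkd1 WT and 133.0, 103.8 and 148.3 in Pkd1 KO libraries at P7. In Pkd2 they were 364.3, 385.0 and 305.1 in WT and 239.4, 222.9 and 186.6 in KO. Every WT library was well above every KO library of its model. The log2 fold change was -1.13 in Pkd1 (SE 0.14, adjusted p = 0.00641) and -0.70 in Pkd2 (SE 0.11, adjusted p = 0.00749). It remained called whichever of the 6 libraries was left out, in either model.
Atp6v1g3, the kidney G subunit (chr1:138273738-138289462), had 64.2, 69.8 and 95.1 normalized CPM in Pkd1 WT and 51.2, 42.0 and 52.8 in KO, and 81.1, 93.1 and 65.4 in Pkd2 WT against 59.1, 59.8 and 46.6 in KO. The groups stood apart by a narrow gap in both models. Its log2 fold changes were -0.65 in Pkd1 (SE 0.17, adjusted p = 0.0427) and -0.53 in Pkd2 (SE 0.15, adjusted p = 0.0469). The call was kept in only 1 of 6 fits without a library in each model, where the library left out was WT replicate 3.
Atp6v0d2 (chr4:19876838-19922566) had 56.6, 80.9 and 62.6 normalized CPM in Pkd1 WT and 43.3, 37.8 and 41.7 in KO, and 74.0, 78.0 and 64.1 in Pkd2 WT against 53.3, 57.2 and 45.7 in KO. KO was below WT in both models, with log2 fold changes of -0.70 (SE 0.15, adjusted p = 0.0260) and -0.47 (SE 0.11, adjusted p = 0.0279). It was called in 2 of 6 fits without a library in each model. Atp6v0d2 is also used by osteoclasts and macrophages. The summed level of 9 macrophage and osteoclast genes was 165.9 to 258.4 normalized CPM in Pkd1 WT and 222.1 to 275.4 in KO, and 193.6 to 231.8 in Pkd2 WT and 268.0 to 370.7 in KO. Of those genes Csf1r, Adgre1, Cd68, Lyz2 and Ctsk were tested, and none of them was called lower. In Pkd2, Csf1r (log2 fold change 0.35, adjusted p = 0.0236) and Lyz2 (1.09, adjusted p = 0.0202) were called higher. Ptprc, Acp5, Dcstamp and Ocstamp were not tested, and the osteoclast genes Dcstamp and Ocstamp were at or near 0 in all 4 groups.

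The other subunits of the pump were counted too. Atp6v0a4, the kidney a subunit of the membrane sector, fell like the members (log2 fold change -1.17, adjusted p = 0.00615 in Pkd1 and -0.44, adjusted p = 0.0298 in Pkd2). Of 16 widely expressed subunits and accessory proteins, 14 were tested, and 2 were called lower in Pkd1 and 1 in Pkd2. These were Atp6v1e1 in both models (-0.43, adjusted p = 0.0434, and -0.33, adjusted p = 0.0322) and Atp6v1a in Pkd1 (-1.07, adjusted p = 0.0104). Atp6v1a, the catalytic subunit, had 523.5 ± 61.8 normalized CPM in Pkd1 WT and 250.1 ± 47.3 in KO (SD, n = 3). In Pkd2 it had 598.7 ± 73.6 in WT and 470.9 ± 29.2 in KO, with a log2 fold change of -0.35 that was not called (adjusted p = 0.0512). The median log2 fold change of the 14 was -0.18 in Pkd1 and -0.14 in Pkd2, and Atp6v1b2, the widely used counterpart of Atp6v1b1, had -0.30 (adjusted p = 0.168) and -0.21 (adjusted p = 0.174). Whether these 14 genes and the kidney subunits differ in response was not tested.

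**Figure D3:**
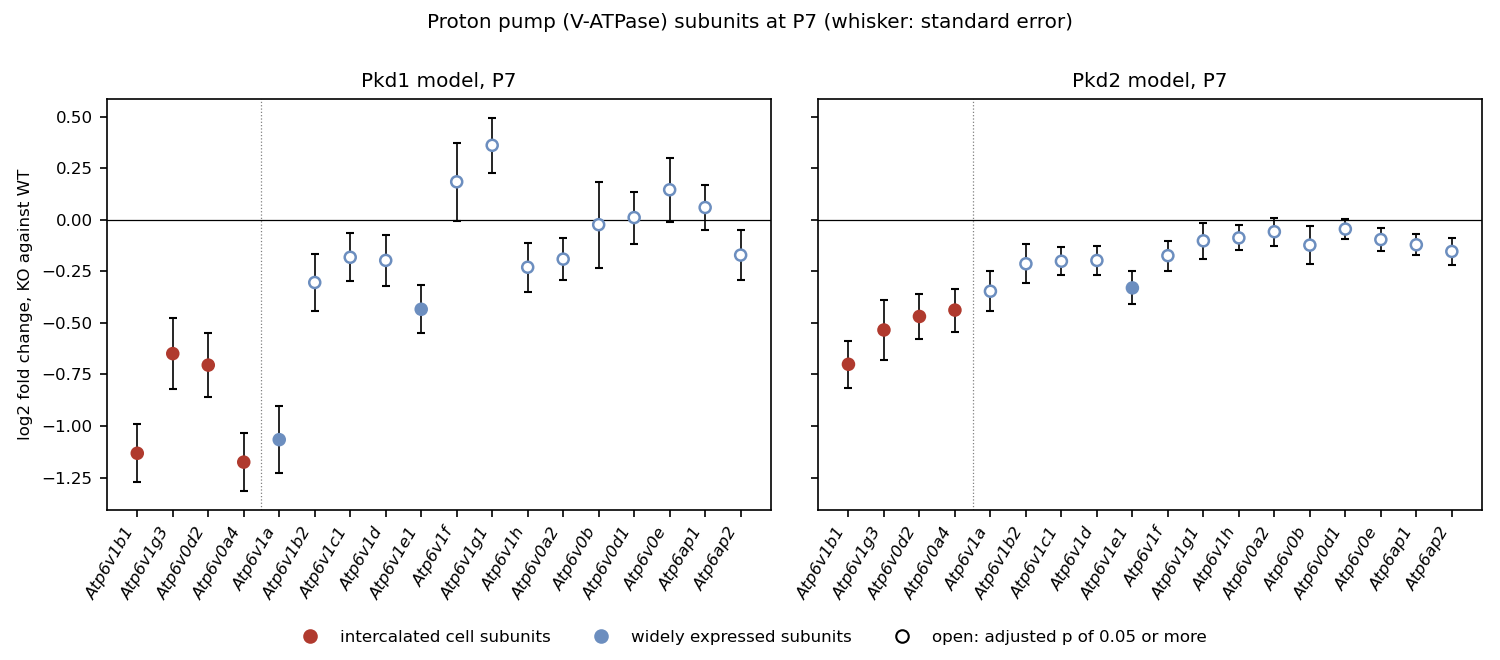
Log2 fold change of KO against WT at P7 (vertical axis) for 4 V-ATPase subunits of intercalated cells (red, left of the dotted line) and 14 widely expressed subunits and accessory proteins (blue) in the Pkd1 model (left panel) and the Pkd2 model (right panel). Whiskers are standard errors and open points have an adjusted p of 0.05 or more. The 4 red points lie between -1.17 and -0.44, and among the blue points Atp6v1a in Pkd1 and Atp6v1e1 in both models are filled.

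The anion exchangers had the lowest log2 fold changes of the members in both models. Slc4a1, the basolateral chloride-bicarbonate exchanger of type A cells (chr11:102348820-102365281), had 63.97, 90.1 and 49.4 normalized CPM in Pkd1 WT and 19.0, 13.0 and 26.3 in KO at P7. In Pkd2 it had 65.6, 64.7 and 55.6 in WT and 26.5, 30.1 and 34.05 in KO. The lowest WT library was well above the highest KO library in both models. Its log2 fold change was -1.80 in Pkd1 (SE 0.29, adjusted p = 0.0115) and -1.04 in Pkd2 (SE 0.11, adjusted p = 0.00166), and it was called in all 6 fits without a library in either model.
Slc26a4, the apical exchanger pendrin of type B cells (chr12:31519814-31560055), had 45.2, 52.0 and 46.8 normalized CPM in Pkd1 WT and 14.7, 17.8 and 27.2 in KO. In Pkd2 it had 67.0, 59.1 and 44.4 in WT and 24.5, 28.9 and 19.3 in KO. Here too the groups were far apart. The log2 fold change was -1.27 in Pkd1 (SE 0.22, adjusted p = 0.0143) and -1.23 in Pkd2 (SE 0.19, adjusted p = 0.00578). In Pkd1 the adjusted p became 0.0545 without WT replicate 1 and 0.0696 without KO replicate 2, while in Pkd2 the call was kept without any of the 6 libraries. In the fits of 18 libraries with the Y-linked covariate, Slc26a4 was -1.34 in Pkd1 (adjusted p = 0.264) and -1.30 in Pkd2 (adjusted p = 0.00119).

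Car2 and Rhcg were not called. Other tubule cells also make both, and the part of this in their values was not tested. Car2, which supplies the protons and bicarbonate that the pump and the exchangers move (chr3:14886269-14900770), had 263.2, 291.6 and 275.5 normalized CPM in Pkd1 WT and 333.7, 312.3 and 261.2 in KO. In Pkd2 it had 332.8, 332.4 and 276.2 in WT and 321.3, 332.0 and 347.0 in KO. The groups overlapped in both models, with log2 fold changes of 0.13 (SE 0.12, adjusted p = 0.486) and 0.09 (SE 0.08, adjusted p = 0.529).
Rhcg, the apical and basolateral ammonia channel (chr7:79593363-79617657), had 375.2, 352.9 and 454.3 normalized CPM in Pkd1 WT and 279.8, 316.9 and 310.8 in KO. In Pkd2 it had 449.3, 430.5 and 353.4 in WT and 303.0, 365.4 and 377.4 in KO. KO and WT did not overlap in Pkd1 and overlapped in Pkd2. The log2 fold change was -0.38 in Pkd1 (SE 0.13, adjusted p = 0.0755) and -0.24 in Pkd2 (SE 0.11, adjusted p = 0.203). In Pkd1 it passed with DESeq2 (adjusted p = 0.0318) and turned to 0.15 with all 18 libraries and the Y-linked covariate, and in Pkd2 it passed without WT replicate 3 (-0.34, adjusted p = 0.0441).

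Other genes of intercalated cells and of neighbouring cells were set beside the members. Of 16 other intercalated cell genes, 13 were tested, and 9 were lower and 0 higher in KO at P7 in both models, with a median log2 fold change of -0.997 in Pkd1 and -0.67 in Pkd2. Besides Atp6v0a4 these included Aqp6, a vesicle water channel of type A cells (-1.68 and -1.14), Hmx2, a homeobox factor (-1.65 and -1.12), the ammonia transporter Rhbg (-1.11 and -0.74), and Insrr, an alkali-sensing receptor of type B cells (-0.997 and -0.95). Slc26a7, a basolateral exchanger of type A cells, was called in Pkd1 (-3.09, adjusted p = 0.0262) and not in Pkd2 (-1.73, adjusted p = 0.0620). The summed level of the 16 genes was 903.1 to 1089 normalized CPM in Pkd1 WT and 476.4 to 574.2 in KO, and 1065 to 1175 in Pkd2 WT and 695.5 to 748.5 in KO. In Pkd1, fitting all 18 libraries gave 9 of 13 called, and adding the Y-linked covariate to that fit gave 0 of 13, with 12 of 13 genes still negative and a median of -0.64. In Pkd2, all 18 libraries gave 5 of 13, and 6 of 13 with the covariate added, with 13 of 13 negative and a median of -0.68. Leaving out the Pkd2 WT library without Y-linked counts gave 10 of 13. The share of all transcripts called was not set beside these counts from alternative fits.

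Genes of other tubule cells fell at the same time. Among principal cell genes 5 were tested and 3 were lower in KO in each model, among them the water channels Aqp2 (-2.28 and -2.38) and Aqp3 (-1.19 and -0.86), while Gata3 was higher in Pkd1 (0.66, adjusted p = 0.0477). The summed level of the 10 principal cell genes was 1003 to 1179 normalized CPM in Pkd1 WT and 514.1 to 651.5 in KO, and 929.1 to 1384 in Pkd2 WT and 577.8 to 677.4 in KO. All 6 tested proximal tubule genes were lower in both models, and their sum was 4674 to 5460 normalized CPM in Pkd1 WT and 1543 to 2681 in KO, and 4736 to 5850 and 3268 to 3434 in Pkd2. Of 5 tested genes of the thick ascending limb and distal tubule, 3 were lower in each model. Of 6 tested genes of proximal acid-base transport and ammonia production, 4 were lower in each, including the sodium-proton exchanger Slc9a3 (-2.71 and -0.61) and Pck1 (-1.53 and -0.94). These segments are outside the collecting duct, and the part that a lower share of tubule RNA has in the values of the members was not tested. Among collecting duct fate genes, such as Notch receptors and the factor Tfcp2l1, 9 were tested, and 1 was called lower in Pkd1, Mib1, a ligase of the Notch pathway (-1.28, adjusted p = 0.0340). In Pkd2 the log2 fold change of Mib1 was -0.13 (adjusted p = 0.525). Notch2 was not called in either model, with -0.58 in Pkd1 (adjusted p = 0.0585) and -0.19 in Pkd2 (adjusted p = 0.0557). Stromal genes moved both ways, with 1 higher and 1 lower in Pkd1 and 3 higher and 1 lower in Pkd2, and of the endothelial genes 0 of 2 tested were called in Pkd1 and 1 of 2 was lower in Pkd2.

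In WT kidneys the members rose between P1 and P7. In Pkd1 WT, 8 of 8 members were called and all were higher, where 25.8% of all transcripts were called and 12.6% were called higher. In Pkd2 WT, 7 of 8 were called higher, where the shares were 26.7% and 13.1%. The presence of Y-linked reads differed between these days too. In Pkd1 WT they were counted in 2 of 3 libraries at P1 and 0 of 3 at P7, and in Pkd2 WT in 1 of 3 and 2 of 3. Slc26a4 rose most, with a log2 change of 2.67 (SE 0.27) in Pkd1 and 1.84 (SE 0.21) in Pkd2. Its normalized CPM went from 7.52 ± 0.372 at P1 over 26.7 ± 5.35 at P3 to 48.0 ± 3.54 at P7 in Pkd1 WT (SD, n = 3), and from 15.9 ± 0.680 over 30.6 ± 7.15 to 56.8 ± 11.5 in Pkd2 WT. Atp6v1b1 rose by 1.56 and 1.35 and Rhcg by 1.33 and 1.01, and Car2 had the lowest of the called changes in Pkd1, 0.81, beside 0.78 in Pkd2. Foxi1 rose by 1.41 in Pkd1 and 0.69 in Pkd2. Slc4a1 rose by 1.98 in Pkd1 WT, from 17.2 ± 9.64 to 67.8 ± 20.6 normalized CPM, and its change of 1.06 in Pkd2 WT was not called (adjusted p = 0.0516), although P1 and P7 did not overlap.

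In KO kidneys the change with age was called for fewer members. In Pkd1 KO, 7 of 8 members were called higher at P7 than at P1, where 39.7% of all transcripts were called and 19.3% were called higher. In Pkd2 KO, 4 of 8 were called higher, namely Atp6v1b1, Slc26a4, Car2 and Rhcg, where 22.9% were called and 12.5% were called higher. Slc26a4 rose by 1.32 in Pkd1 KO and 0.78 in Pkd2 KO, Atp6v1b1 by 0.52 and 0.96, and Car2 by 1.09 and 0.96. Slc4a1 had a change of 0.49 in Pkd1 KO (adjusted p = 0.327) and -0.02 in Pkd2 KO (adjusted p = 0.975). The presence of Y-linked reads also differed between these days, 0 of 3 at P1 and 3 of 3 at P7 in the KO groups of both models. Within KO, the change from P1 to P7 and the presence of Y-linked reads therefore cannot be told apart. The Y-linked covariate can be estimated only from WT libraries, and in Pkd1 only from those at P1. With this covariate the counts were 3 of 8 in Pkd1 KO and 1 of 8 in Pkd2 KO, and 6 of 8 in WT of both models. Without KO replicate 3 of P1, the Pkd1 KO count was 4 of 8. The shares of all transcripts called in these alternative fits are not given here, so the counts describe the members alone.

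**Figure D4:**
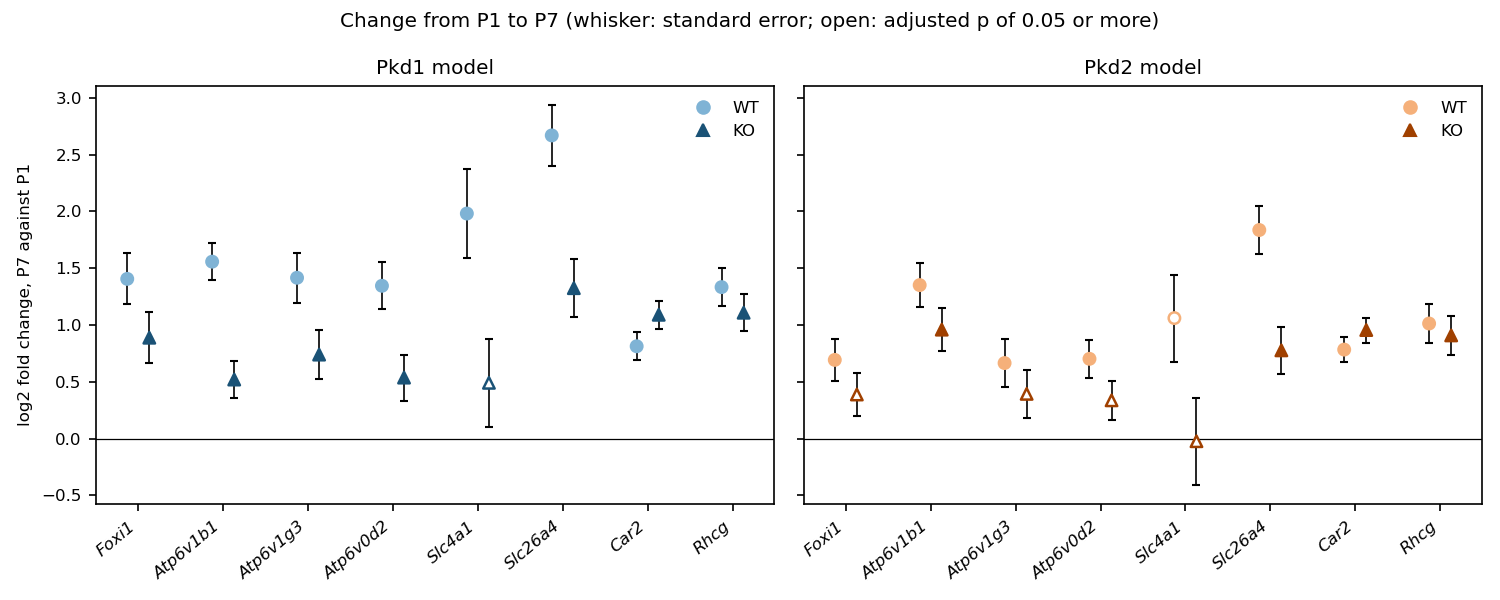
Log2 fold change from P1 to P7 (vertical axis) of the 8 tested genes in WT (circles) and KO (triangles) of the Pkd1 model (left) and the Pkd2 model (right), with standard errors as whiskers and open symbols where the adjusted p was 0.05 or more. The largest changes are those of Slc26a4 in WT, 2.67 and 1.84, and the KO symbol lies below the WT symbol for every gene except Car2.

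The difference of the KO effect between P7 and P1 was tested in one fit of the 18 libraries of a model. In Pkd1, 2 of 8 members had a lower KO effect at P7 than at P1, Atp6v1b1 by -1.04 on the log2 scale (SE 0.23, adjusted p = 0.0139) and Slc26a4 by -1.35 (SE 0.36, adjusted p = 0.0337), where 7.75% of all transcripts were called and 4.1% were called lower. Slc4a1 had a difference of -1.49 with a wider error (SE 0.54, adjusted p = 0.0951), and Atp6v0d2 one of -0.81 (SE 0.29, adjusted p = 0.0893). Deviations of same-numbered KO and WT libraries of Pkd1 had correlations of 0.298 to 0.620 at P1 and -0.229 to -0.000369 at P7. The labels do not say what a replicate number shares. With a block for the replicate number within each day, 4 members were called. Slc4a1 (adjusted p = 0.0454) and Atp6v0d2 (adjusted p = 0.0334) were the additions. With the Y-linked covariate 0 members and 0 transcripts in all were called, and without 1 of the 12 libraries at P1 and P7 the count was 1 to 5. Atp6v1b1 was called in 12 of these 12 fits and Slc26a4 in 3 of 12. In Pkd2, 0 of 8 members were called, where 1.3% of all transcripts were, 1954 had an unadjusted p under 0.05 and DESeq2 called 1 member, Slc26a4. The differences there were -1.06 for Slc26a4 (SE 0.29, adjusted p = 0.0882), -1.08 for Slc4a1 (SE 0.54, adjusted p = 0.352) and -0.39 for Atp6v1b1 (SE 0.27, adjusted p = 0.514).

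The models were compared at P7 in one fit of 12 libraries. In the KO effect of Pkd1 minus that of Pkd2, 0 of 8 members were called, where 0% of 12343 transcripts were called and 2130 had an unadjusted p under 0.05 in edgeR, and DESeq2 called 0 members. Slc4a1 differed by -0.74 (SE 0.34, adjusted p = 0.290), Atp6v1b1 by -0.41 (SE 0.19, adjusted p = 0.295) and Slc26a4 by -0.02 (SE 0.31, adjusted p = 0.977). The model and the cohort of mice cannot be told apart in this contrast.

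Slc4a1 also had high values in 2 libraries of the Pkd2 model at P3. The red cell also uses Slc4a1, as band 3 of its membrane, and the row counted does not separate the kidney from the red cell transcript. In Pkd2 at P3 the normalized CPM of Slc4a1 were 36.7, 134.1 and 48.4 in WT and 38.6, 43.7 and 77.6 in KO libraries. The summed level of 10 erythroid genes was 64.4 normalized CPM in WT replicate 2 and 27.8 in KO replicate 3, and 3.32 to 10.5 in the other 34 libraries. In WT replicate 2, Atp6v0d2 was at 30.4 against 52.8 and 46.0 in the other WT libraries, and Rhcg at 145.5 against 267.3 and 233.4, while Car2 was at 214.3 against 217.3 and 213.0. The KO effect on Slc4a1 on that day, -0.45 (SE 0.51, adjusted p = 0.947), turned to 0.33 without WT replicate 2. At P7 the erythroid sum was 5.96 to 7.57 normalized CPM in Pkd1 WT and 5.15 to 7.17 in KO, and 6.15 to 7.70 in Pkd2 WT and 5.29 to 8.67 in KO, and the tested erythroid genes had log2 fold changes between -0.55 and 0.41 in Pkd1 and between -0.72 and 0.44 in Pkd2, none of them called by edgeR. The globin genes Hba-a1, Hba-a2, Hbb-bs and Hbb-bt are listed at 0 in every library.

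**Figure D5:**
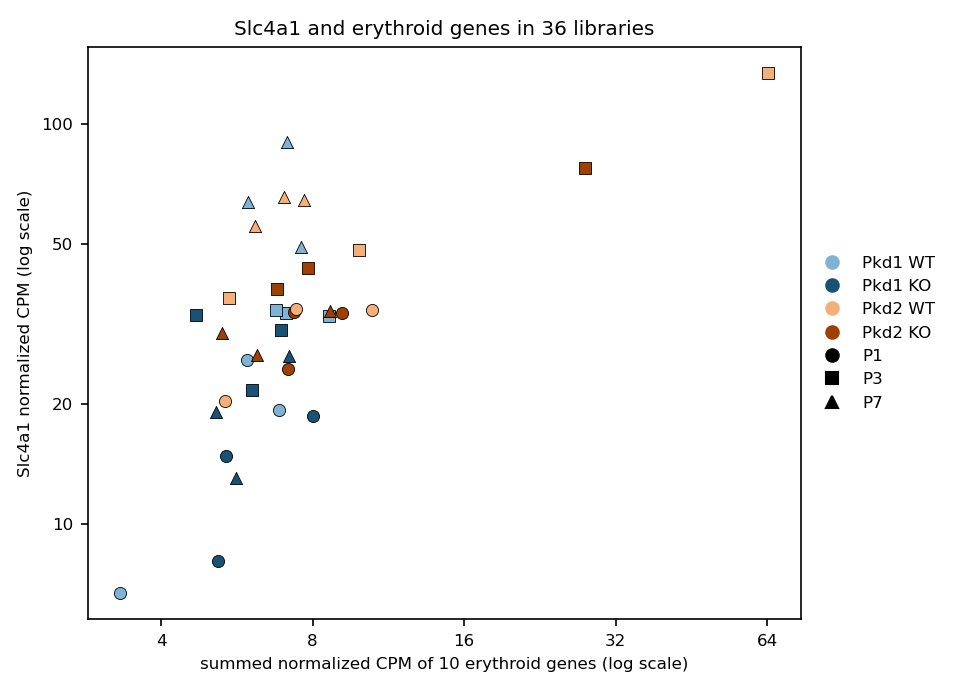
Slc4a1 (vertical axis, normalized CPM, log scale) against the summed normalized CPM of 10 erythroid genes (horizontal axis, log scale) in the 36 libraries, with colours for model and genotype and circles, squares and triangles for P1, P3 and P7. The 2 squares on the right are Pkd2 WT replicate 2 and Pkd2 KO replicate 3 of P3, and the P7 triangles of WT lie above those of KO at like erythroid sums.

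Across the 36 libraries the members varied together to different degrees. These correlations are descriptions over libraries that share day, genotype and cohort. Over the 28 pairs, Pearson's r of log2 normalized counts ran from 0.487 to 0.937 with a median of 0.833. The pair with the highest r was Atp6v1g3 and Atp6v0d2 (0.937), and Foxi1 was nearest to Atp6v1g3 (0.910), Tmem72 (0.901) and Atp6v0d2 (0.899) among 12343 transcripts. The lowest r was that of Slc4a1 and Car2 (0.487). Slc26a4 was nearest to Insrr (0.922), Rhbg (0.899) and Kmo (0.897), of which Insrr and Rhbg are themselves intercalated cell genes. Atp6v1b1 was nearest to Cryz (0.963), Pbld1 (0.942) and Mettl7a1 (0.937), Rhcg to Pipox (0.917), Prdx5 (0.916) and Sh3tc1 (0.912), Car2 to Cytip (0.927) and Anxa4 (0.918), and Slc4a1 to Lpl (0.896), Slc25a42 (0.825) and Etfa (0.822).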

How the data were processed

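The authors mapped RNA-seq reads to mm10 with TopHat (TopHat2 2.1.0 and CASAVA 1.8.2 per the labels) and counted them with HTSeq under default options on RefSeq transcripts. The deposited table holds these raw counts for 29996 rows, of which 28978 were given a symbol from RefSeq's GRCm38.p6 annotation. The members and gene lists were chosen with earlier results of these data known. Transcripts that reached 10 counts in 3 or more of 18 libraries were tested, 12527 in Pkd1 and 12633 in Pkd2, with edgeR 4.0.16 (R 4.3.3; quasi-likelihood test, TMM factors, adjusted p under 0.05). The standard error is the log2 fold change over the square root of F. KO and WT were compared in 6 libraries, ages in 18 and models in 12. Alternatives were DESeq2 1.42.0, RLE factors, other filters, transcripts of a gene summed, at least a 2-fold change, all 18 libraries, a Y-linked covariate (over 100 Y-linked counts in a library), a replicate block and leaving out each library. Steps were tested on simulated data.

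Named genes are the members, the listed genes and the 3 transcripts most correlated with each member (log2 counts, prior count 1); some items are not reported here. Replicate numbers come from the labels, which do not say what they share. Deviations of same-numbered KO and WT libraries correlated between 0.298 and 0.620 in Pkd1 at P1. The main tests did not pair libraries by number, and the replicate block was run only as an alternative. Replicates differed by a chi-square per transcript of 5.15 to 64, above counting error.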

Additional observations from a re-analysis of the deposited data

Results flagged for a closer look

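In the Pkd1 model the KO effect on Slc26a4 was lower at P7 than at P1 by -1.35 on the log2 scale, and that on Atp6v1b1 by -1.04, both by edgeR's test of the difference between days (adjusted p = 0.0337 and 0.0139). With a term for libraries that had Y-linked reads the differences were -1.47 and -0.36 and were not called (adjusted p = 0.880 and 0.943).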

How the results depend on the processing

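Of the counts of members called, those of KO against WT at P1 and P3 and of the contrast between models were 0 under every alternative run. At P7 in Pkd1 the count of 6 became 3 with a change of at least 2-fold required and 0 with all 18 libraries and the Y-linked covariate, and in Pkd2 it became 2 with at least 2-fold required and 2 with all 18 libraries in one fit. Leaving out 1 library gave 2 to 6 in Pkd1 and 3 to 7 in Pkd2. For P7 against P1 in KO, the Y-linked covariate gave 3 in Pkd1 and 1 in Pkd2, and leaving out 1 library gave 4 to 7 in Pkd1. For the KO effect at P7 minus P1, the Pkd1 count of 2 became 0 with the Y-linked covariate and 1 to 5 without 1 library (5 without KO replicate 3 of P1), and in Pkd2 DESeq2 gave 1. In that contrast the replicate block gave 4 in Pkd1 and 0 in Pkd2, and in KO against WT at P7 it gave 4 in Pkd1 and 6 in Pkd2. These counts under the alternatives stand without the share of all transcripts called. Outside Pkd1 at P1, the correlations of same-numbered libraries ran from -0.229 to 0.189. With so few libraries in a group they cannot decide what same-numbered samples share, and the labels do not say.

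Directions turned for some values, none of them called. With all 18 libraries and the Y-linked covariate Rhcg was 0.15 in KO against WT, Pkd1 P7, and with that covariate the KO effect at P7 minus P1 in Pkd1 was 0.64 for Rhcg, 0.41 for Foxi1, 0.033 for Atp6v0d2 and 0.056 for Atp6v1g3. Slc4a1 in KO at P7 against P1 in Pkd2 was 0.19 with it, and -0.16 to 0.062 without 1 library. Without 1 library Slc4a1 in Pkd2 at P3 ran from -0.83 to 0.33, and Slc26a4 in Pkd1 minus Pkd2 from -0.32 to 0.15. The causes were not tested. RLE factors, no filter, the stricter filter and summed transcripts turned no direction. The counts of the other intercalated cell genes with all 18 libraries, with all 18 and the Y-linked covariate, and without the Pkd2 WT library lacking Y-linked reads, were chosen after seeing the data. Slc4a9 had too few reads to be tested.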
